A study of Homo sapiens with 18 samples.

Results

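Cytosolic nucleic acid sensing was followed at 10 of the 19970 protein-coding genes on chromosomes 1 to 22 and X, through 12 CUT&Tag peak lists: the sensors CGAS, IFI16 and IFIH1, the signalling proteins STING1, MAVS, TBK1 and IRF3, and the nucleic acid enzymes TREX1, SAMHD1 and ADAR. They were taken by name as genes of cytosolic nucleic acid sensing, by a rule that uses no measured value, though earlier results of these data were known. Each gene was studied with 10 kb to either side. The cells were A549, a human lung adenocarcinoma line, profiled as wild type (WT), with a YTHDF1 knockout (YTHDF1-KO) or with ARID1A knocked down by siRNA (siARID1A). CUT&Tag uses an antibody to bring a transposase to chromatin, so that sequencing adapters are inserted near the antibody's target. Each of the 3 conditions was profiled with an antibody against YTHDF1 and with an antibody against ARID1A, in 2 libraries each. No treatment beyond the knockout and the siRNA is named, and the labels do not give the number of knockout clones or state that paired libraries came from separate cultures, so the spread between them may be technical. Normal IgG libraries (6) and the combination of knockout and knockdown that the series' design text names were not analysed here.

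DNA or RNA in the cytosol is read by sensors that start the interferon response. CGAS binds double-stranded DNA and makes a cyclic dinucleotide that activates STING1, whereas IFIH1 (MDA5) binds long double-stranded RNA and signals through MAVS on mitochondria. Both branches meet at the kinase TBK1, which phosphorylates the transcription factor IRF3, and enzymes such as TREX1, SAMHD1 and ADAR limit the nucleic acids that would set the sensors off. YTHDF1 is known as a reader of methylated adenosine in messenger RNA, and ARID1A is a DNA-binding subunit of the BAF (SWI/SNF) chromatin remodelling complexes.

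The members differed in whether a peak lay at the transcription start, so 6 start regions are shown first, from RefSeq on GRCh38.p14. Each runs from 250 bases before the start to 30 bases after it, 5′ to 3′ on the strand of the gene. Capitals mark matches, on either strand, to 6 motifs: GAAANNGAA (the core of the interferon-stimulated response element), GGGCGG (GC box), TGANTCA (AP-1), CCGGAAG (ETS), CACGTG (E-box) and CCAAT. The MAVS stretch is chr20:3846584-3846863 on the plus strand, TBK1 chr12:64451870-64452149 on the plus strand and IFIH1 chr2:162318655-162318934 on the minus strand. ADAR has an outer start, in chr1:154627968-154628247, and an inner start, in chr1:154608768-154609047, both on the minus strand, and the IFI16 stretch is chr1:159009657-159009936 on the plus strand. MAVS had a peak within 1 kb of its start in all 12 lists, and TBK1 in all 6 anti-ARID1A lists and 2 anti-YTHDF1 lists. IFIH1 had one in anti-ARID1A lists alone, and IFI16 had none at the starts listed for it.
MAVS: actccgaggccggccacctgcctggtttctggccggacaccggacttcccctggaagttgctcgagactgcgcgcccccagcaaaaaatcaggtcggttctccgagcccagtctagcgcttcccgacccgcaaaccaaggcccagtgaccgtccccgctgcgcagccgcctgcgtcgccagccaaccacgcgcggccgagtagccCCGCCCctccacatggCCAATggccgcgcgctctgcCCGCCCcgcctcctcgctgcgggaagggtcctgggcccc
TBK1: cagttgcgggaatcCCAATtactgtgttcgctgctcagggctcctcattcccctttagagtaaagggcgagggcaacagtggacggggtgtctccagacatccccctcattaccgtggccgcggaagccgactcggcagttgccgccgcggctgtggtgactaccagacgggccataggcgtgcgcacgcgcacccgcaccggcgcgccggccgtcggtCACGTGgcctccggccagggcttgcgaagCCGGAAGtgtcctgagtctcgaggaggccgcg
IFIH1: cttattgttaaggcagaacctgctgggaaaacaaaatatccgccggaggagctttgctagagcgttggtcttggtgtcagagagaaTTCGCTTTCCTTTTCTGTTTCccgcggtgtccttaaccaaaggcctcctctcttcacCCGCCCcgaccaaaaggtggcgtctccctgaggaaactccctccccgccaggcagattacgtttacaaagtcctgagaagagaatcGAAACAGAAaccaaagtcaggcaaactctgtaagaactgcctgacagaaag
ADAR outer start: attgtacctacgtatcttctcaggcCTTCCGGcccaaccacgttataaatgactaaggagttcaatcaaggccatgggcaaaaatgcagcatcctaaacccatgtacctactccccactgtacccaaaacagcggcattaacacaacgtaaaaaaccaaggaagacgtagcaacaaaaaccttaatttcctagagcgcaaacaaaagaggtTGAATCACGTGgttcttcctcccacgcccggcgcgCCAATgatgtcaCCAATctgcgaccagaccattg
ADAR inner start: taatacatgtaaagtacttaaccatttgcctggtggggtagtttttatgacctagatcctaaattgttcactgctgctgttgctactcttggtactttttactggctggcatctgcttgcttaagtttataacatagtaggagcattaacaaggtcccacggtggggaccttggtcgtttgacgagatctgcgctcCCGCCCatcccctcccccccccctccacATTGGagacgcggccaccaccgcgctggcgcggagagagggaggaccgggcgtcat
IFI16: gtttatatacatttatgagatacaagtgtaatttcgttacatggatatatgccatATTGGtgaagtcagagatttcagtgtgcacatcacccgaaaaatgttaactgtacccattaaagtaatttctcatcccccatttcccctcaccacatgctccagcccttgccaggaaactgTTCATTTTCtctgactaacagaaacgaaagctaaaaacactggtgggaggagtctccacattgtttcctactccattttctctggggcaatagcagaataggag

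Of the 10 members, 7 matched an entry in the RefSeq start table by symbol, and CGAS, STING1 and IRF3 did not. The motifs were chosen with these sequences in view, and a match describes letters, not a bound site. The IFIH1 stretch held 4 matches to GAAANNGAA, beginning 164, 158, 152 and 21 bases before the start, and the IFI16 stretch held 1, beginning 74 bases before the start. That motif was present in 8.1% of the 34943 RefSeq promoters of 300 bases. MAVS had GC boxes beginning 45 and 9 bases before the start, with another just past the end of the printed stretch, and GGGCGG was present in 44.9% of promoters. TBK1 had an ETS match beginning 2 bases before its start and an E-box beginning 31 bases before it, motifs present in 10.2% and 7.23% of promoters. The ADAR outer start had an AP-1 match 39 bases and an E-box 34 bases before it, which overlap each other, and TGANTCA was present in 7.72% of promoters. Each printed stretch but that of IFIH1 had a CCAAT match, against 34.6% of promoters with one. It began 26 bases before the ADAR inner start, 195 before IFI16, 29 before MAVS and 236 before TBK1. The ADAR outer start had 2, beginning 4 bases before it and 8 after it. GC boxes also began 107 bases before the IFIH1 start and 54 before the ADAR inner start. A further ETS match began 225 bases before the ADAR outer start. Over the full 300 bases the GC content was 71.67% for MAVS, 68.33% for TBK1, 50.67% for IFIH1, 47.67% and 53.0% for the outer and inner ADAR starts and 41.67% for IFI16, against a median of 58.67%. The IFI16 start region printed above held 3 CpG dinucleotides, that of its other listed start 1 and that of TBK1 35, with a median of 14 over all promoters.

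The libraries set limits on every comparison. The anti-YTHDF1 lists held 40562 to 59632 peaks and the anti-ARID1A lists 71271 to 106882. The anti-YTHDF1 lists of the YTHDF1-KO cells held 50774 and 46225 peaks, within the range of the WT lists, 57764 and 40562. How far these peaks mark YTHDF1 itself cannot be told from the lists, and this holds for every anti-YTHDF1 value given here. The anti-ARID1A lists covered 228 and 266 Mb in WT, 241 and 234 Mb in YTHDF1-KO and 99 and 128 Mb in siARID1A. Peak lists hold no measure of either protein or transcript, so knockout and knockdown were not checked here; at least 1 peak lay in the windows of the YTHDF1 and ARID1A genes in all 12 lists. The read depth behind the lists is unknown. The signal scale of each library was set by the authors, so a peak's total signal is given only as its percentile within its own list.

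Together the 10 windows held 430 peaks, 176 in anti-YTHDF1 and 254 in anti-ARID1A lists, which merged into 61 sites. A site joins peaks that overlap across lists in a chain, so lists counted at a site need not share a base. Of these sites, 18 were in a single list and 17 in 6 or more lists. Of the 10 members, 6 (STING1, IRF3, TREX1, SAMHD1, MAVS and ADAR) had a peak in all 12 lists, beside 45.0% of all genes. CGAS, IFI16 and IFIH1, the 3 sensors, were each in at most 1 anti-YTHDF1 list, a state shared by 17.6% of all genes. A peak of a member window was met by a peak of the other library of its group in 55.0%, 63.6% and 55.7% of cases with anti-YTHDF1 in WT, YTHDF1-KO and siARID1A, against 40.4%, 35.6% and 44.0% over the whole lists. With anti-ARID1A the shares were 86.0%, 75.9% and 66.7%, against 70.8%, 67.1% and 57.8%. Peaks of 1 library that the other lacked were thus common at the members with anti-YTHDF1. For the 7 members with a start entry, peaks within 1 kb of a RefSeq start had a median percentile of total signal between 54.2 and 89.9 across the 12 lists, and those farther away between 22.2 and 61.3. In each list the peaks near starts had the higher median, on 2 to 8 such peaks per list. The same medians over all starts were not computed.

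**Figure D1:**
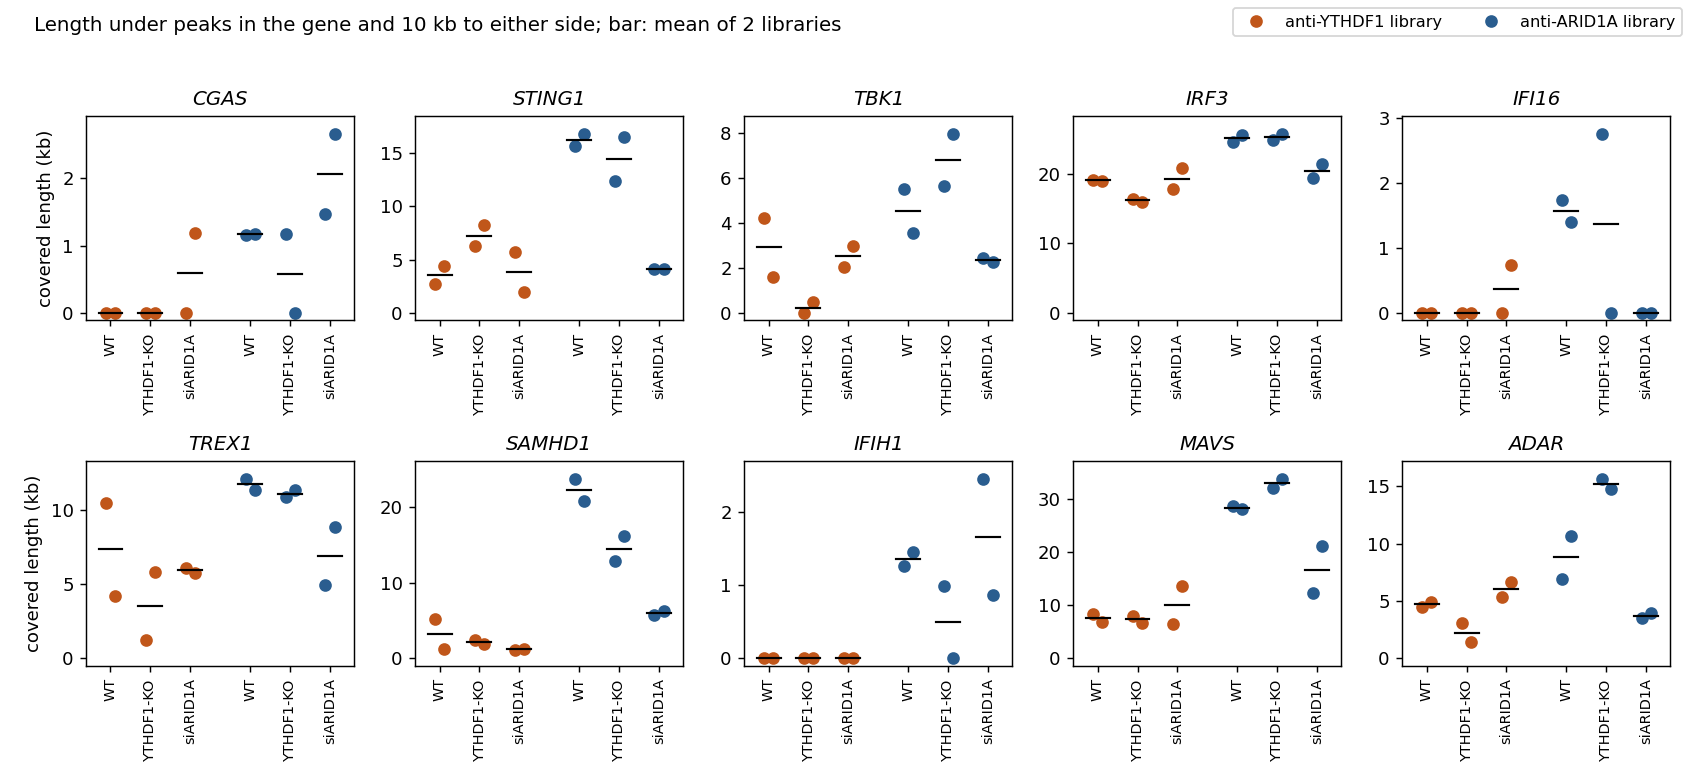
Length under peaks (kb, vertical axis) in each member gene with 10 kb to either side, by condition; points are libraries (orange anti-YTHDF1, blue anti-ARID1A) and bars are means of 2 libraries. IRF3 was covered in all 12 lists, while IFIH1 was at 0 in the 6 anti-YTHDF1 lists and in 1 YTHDF1-KO anti-ARID1A list.

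CGAS, the DNA sensor that makes the STING1 ligand, lies at chr6:73423711-73452297 and was sparsely covered. Its covered length, meaning the bases of the window under peaks, was 0 bp in 5 of the 6 anti-YTHDF1 lists and 1190 bp in siARID1A replicate 2. With anti-ARID1A it was 1158 and 1176 bp in WT, 1178 and 0 bp in YTHDF1-KO and 1465 and 2653 bp in siARID1A. The groups of the 2 antibodies overlapped, since a list of each was at 0. The site that recurred, chr6:73454031-73456497, lay outside the annotated gene, beyond its end of higher coordinate, in both WT and both siARID1A anti-ARID1A lists. The peak there had a percentile of total signal of 21.6 and 17.9 in WT, so it was among the weaker peaks of those lists, and of 39.1 and 1.42 in siARID1A. In the first YTHDF1-KO anti-ARID1A list the peak lay elsewhere, inside the gene at chr6:73440982-73442159, with a percentile of 2.42. The neighbouring genes in the window were DDX43 and MTO1, a transfer RNA modification enzyme of mitochondria.

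IFI16, a nuclear and cytosolic DNA sensor of the PYHIN family, lies at chr1:158999976-159055151. Its covered length was 0 bp in 5 anti-YTHDF1 lists and 745 bp in siARID1A replicate 2, where the peak had a percentile of 4.65. The anti-ARID1A lists gave 1739 and 1409 bp in WT, 2760 and 0 bp in YTHDF1-KO and 0 bp in both siARID1A lists. Both WT anti-ARID1A lists thus had a peak and both siARID1A lists had none. A peak in both WT lists and neither siARID1A list was found for 2.1% of all genes, and IFI16 was the only member among them. The recurrent site, chr1:158999488-159001300, had percentiles of 65.0, 53.4 and 20.4 in the 2 WT lists and the first YTHDF1-KO list. It lay at the gene's end of lower coordinate, where the annotated gene begins on the plus strand, and covered that position in each of these lists. The site also lay over PYDC5 (chr1:158999971-159002751), a gene of a pyrin-domain protein. In these lists it was at least 7691 bp from the nearer of the RefSeq starts listed for IFI16. A peak there cannot be assigned to IFI16 rather than PYDC5. No list had a peak within 1 kb of either RefSeq start listed for IFI16, including the start printed above. Neither listed start is at the gene's annotated beginning, chr1:158999976.

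IFIH1, the MDA5 sensor of long double-stranded RNA at chr2:162267074-162318684, had no peak in any anti-YTHDF1 list, as did 9.1% of all genes. With anti-ARID1A its covered length was 1254 and 1452 bp in WT, 982 and 0 bp in YTHDF1-KO and 2441 and 868 bp in siARID1A. The site chr2:162317826-162319400 was in 5 of the 6 anti-ARID1A lists and overlapped the printed start region in each of the 5. Its peak had percentiles of 64.4 and 62.2 in WT, 9.79 in the first YTHDF1-KO list and 72.1 and 46.1 in siARID1A. The site was thus of middle rank in WT and siARID1A and weak or missing in YTHDF1-KO. The YTHDF1-KO list without it was the second, in which CGAS and IFI16 also had 0 bp. That list had a peak at 7 of the 10 members, beside 86.5% of all genes. The IFIH1 site also reached the annotated span of GCA (from chr2 position 162318763), which encodes the calcium-binding protein grancalcin, so the peak cannot be assigned to IFIH1 alone.

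**Figure D2:**
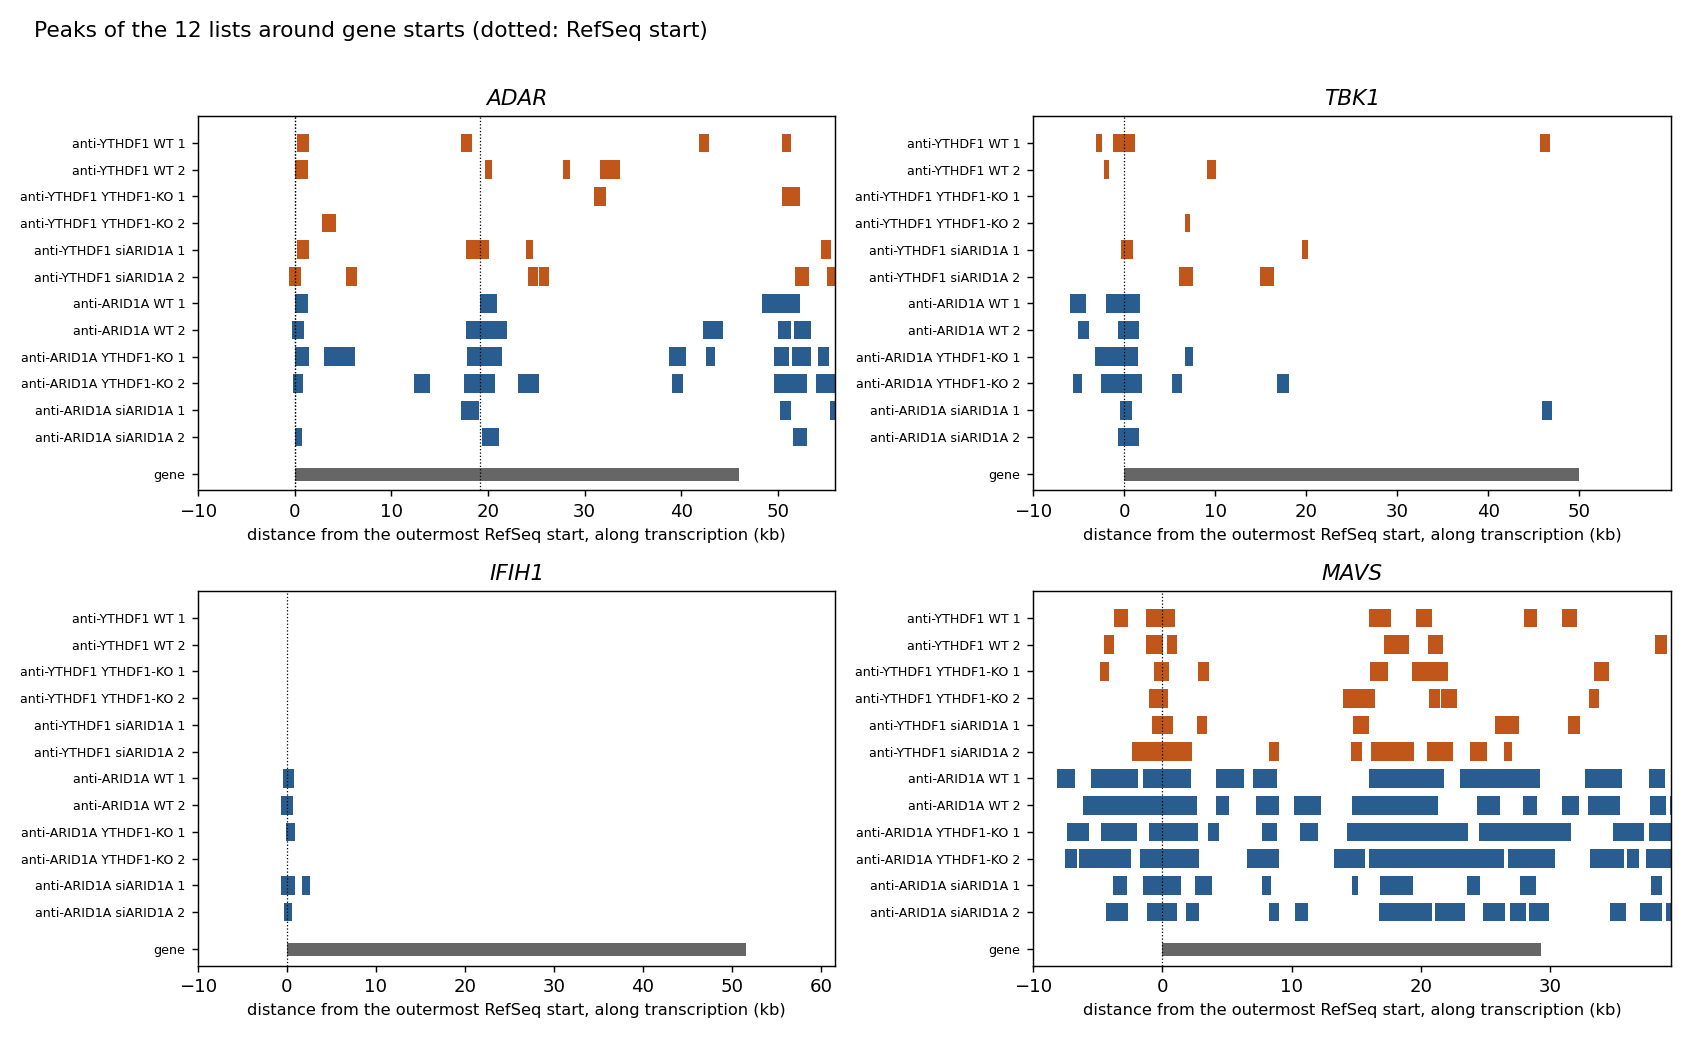
Peaks of the 12 lists (1 row per list, orange anti-YTHDF1, blue anti-ARID1A) by distance in kb from the outermost RefSeq start along transcription; the grey bar is the annotated gene and dotted lines are RefSeq starts. The ADAR outer and inner starts have no peak within 1 kb in the 2 YTHDF1-KO anti-YTHDF1 lists, and MAVS has a peak at its start in all 12.

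STING1, the endoplasmic reticulum protein that CGAS activates, lies at chr5:139475533-139482758. With anti-YTHDF1 its covered length was 2773 and 4416 bp in WT, 6245 and 8216 bp in YTHDF1-KO and 5681 and 2004 bp in siARID1A. The covered length with anti-ARID1A was 15583 and 16744 bp in WT, 12349 and 16439 bp in YTHDF1-KO and 4150 and 4168 bp in siARID1A. Both YTHDF1-KO anti-YTHDF1 libraries lay above both WT libraries, and both siARID1A anti-ARID1A libraries lay far below all others of that antibody. The merged site chr5:139467063-139483343, which spans the gene and its neighbour SMIM33, was in all 12 lists, and a second site, chr5:139484352-139488798, was in 8. In the second siARID1A anti-YTHDF1 list the only peak of the window, chr5:139470791-139472794, lay outside the gene.

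MAVS, the mitochondrial adaptor of the RNA sensors, lies at chr20:3846834-3876118 with no other protein-coding gene in its window. With anti-YTHDF1 its covered length was 8431 and 6904 bp in WT, 8044 and 6760 bp in YTHDF1-KO and 6503 and 13639 bp in siARID1A. The anti-ARID1A libraries had 28614 and 28199 bp in WT, 32156 and 33736 bp in YTHDF1-KO and 12321 and 21123 bp in siARID1A. The WT and YTHDF1-KO libraries of the 2 antibodies were far apart, whereas the siARID1A libraries overlapped. Its strongest peak had a percentile of 84.1 to 97.5 with anti-YTHDF1 and 89.4 to 97.3 with anti-ARID1A. One site, chr20:3838708-3853166, covers the start, and another, chr20:3860127-3879128, covers the distal part of the gene, and both were in all 12 lists. Only 13.7% of the 22131 RefSeq starts had a peak within 1 kb in all 12 lists, as that of MAVS did.

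TBK1, the kinase on which both branches converge, lies at chr12:64452120-64502114. With anti-YTHDF1 its covered length was 4244 and 1623 bp in WT, 0 and 501 bp in YTHDF1-KO and 2060 and 2998 bp in siARID1A. For anti-ARID1A the values were 5523 and 3539 bp in WT, 5645 and 7947 bp in YTHDF1-KO and 2458 and 2254 bp in siARID1A. The YTHDF1-KO libraries were the lowest of the anti-YTHDF1 lists and the highest of the anti-ARID1A lists. The start peak was in all 6 anti-ARID1A lists, as for 52.3% of RefSeq starts, with percentiles of 85.8, 83.9, 89.9, 89.4, 86.9 and 87.2. Its width was 3737 and 2332 bp in WT, 4783 and 4548 bp in YTHDF1-KO and 1343 and 2254 bp in siARID1A. With anti-YTHDF1 only the first WT list and the first siARID1A list had a start peak, with percentiles of 78.2 and 54.7. In the second WT list a peak at chr12:64449852-64450504, within XPOT, the exportin of transfer RNA, had a percentile of 77.2, and the single YTHDF1-KO peak, inside the gene, had 4.59. The other peak of the second WT list, chr12:64461260-64462229 inside TBK1, had a percentile of 8.80. No anti-YTHDF1 peak of 1 WT list overlapped a peak of the other WT list in this window.

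IRF3, the transcription factor that TBK1 phosphorylates, lies at chr19:49659572-49665857 and was the most covered of the members. The covered share of its window was 72.9% and 72.1% in WT, 62.2% and 60.8% in YTHDF1-KO and 67.8% and 79.0% in siARID1A with anti-YTHDF1. With anti-ARID1A it was 93.4% and 97.1% in WT, 94.6% and 97.6% in YTHDF1-KO and 73.7% and 81.6% in siARID1A. These shares stood at percentile 97.9 to 99.8 among all genes of the same list. The medians over all genes were 1.79 to 3.47% with anti-YTHDF1 and 4.60 to 13.8% with anti-ARID1A. In WT with anti-ARID1A 1 peak of 27203 bp or 29134 bp covered the whole gene. In siARID1A the window held 11 and 6 peaks in the 2 anti-ARID1A lists, against 3 and 2 in WT. The window also reaches SCAF1 and BCL2L12, which overlaps IRF3, so this coverage cannot be assigned to IRF3 alone.

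**Figure D3:**
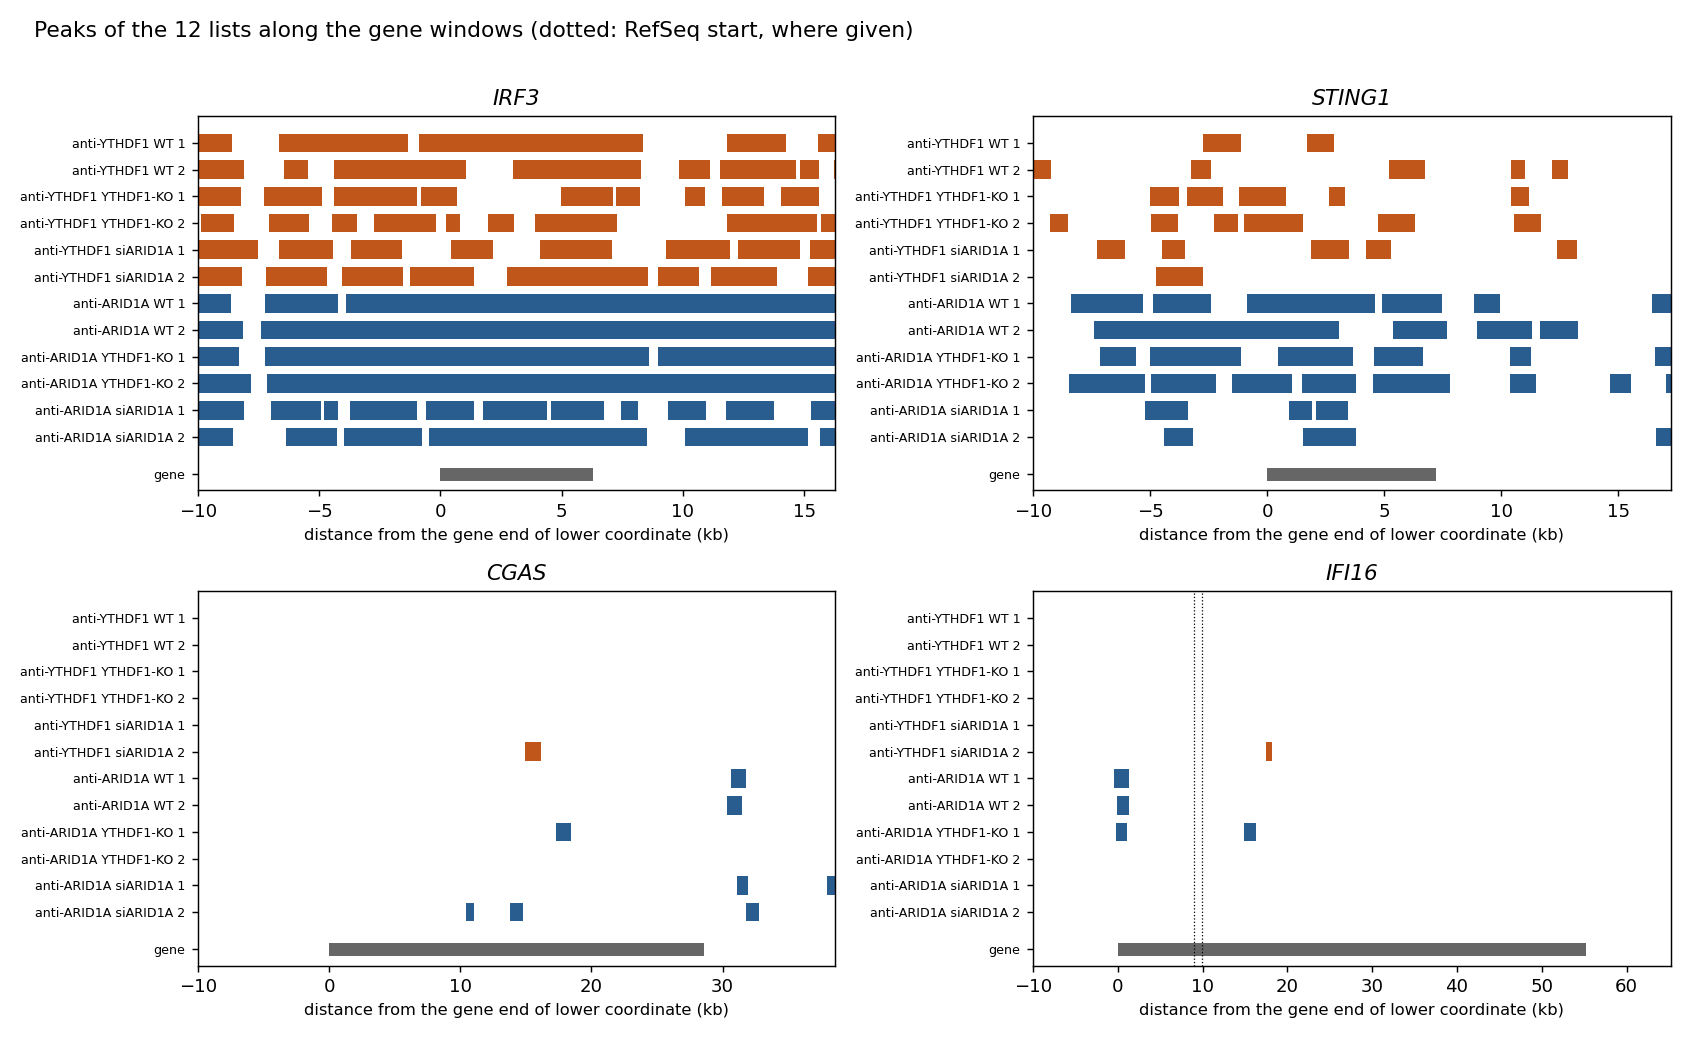
Peaks of the 12 lists (1 row per list, orange anti-YTHDF1, blue anti-ARID1A) by distance in kb from the gene end of lower coordinate. The grey bar is the annotated gene, and dotted lines are the RefSeq starts listed for IFI16. Peaks fill most of the IRF3 window in every list, with 2 or 3 peaks in the WT anti-ARID1A lists, whereas CGAS and IFI16 have at most 3 and 2 peaks in a list.

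TREX1, the exonuclease that degrades cytosolic DNA, is a short gene at chr3:48465830-48467645 that lies within the annotated span of ATRIP, whose product partners the ATR kinase. With anti-YTHDF1 its covered length was 10468 and 4222 bp in WT, 1270 and 5806 bp in YTHDF1-KO and 6084 and 5750 bp in siARID1A. The anti-ARID1A lists gave 12044 and 11346 bp in WT, 10823 and 11309 bp in YTHDF1-KO and 4959 and 8802 bp in siARID1A. The 2 libraries of WT and of YTHDF1-KO with anti-YTHDF1 were too far apart to separate the conditions. The start had a peak in 11 lists, all but the first YTHDF1-KO anti-YTHDF1 list. A site on its far side, chr3:48471513-48479649, within SHISA5, was in all 12.

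SAMHD1, which hydrolyses the building blocks of DNA, lies at chr20:36889773-36951708. With anti-YTHDF1 its covered length was 5252 and 1244 bp in WT, 2432 and 1863 bp in YTHDF1-KO and 1180 and 1287 bp in siARID1A. The covered length with anti-ARID1A was 23661 and 20793 bp in WT, 12857 and 16157 bp in YTHDF1-KO and 5679 and 6266 bp in siARID1A. The lowest anti-ARID1A list lay above the highest anti-YTHDF1 list, and the 3 conditions did not overlap with anti-ARID1A, in the order WT, YTHDF1-KO, siARID1A. The window also takes in TLDC2 (chr20:36876121-36894235), which overlaps the SAMHD1 end of lower coordinate. In the first YTHDF1-KO anti-ARID1A list the strongest peak, chr20:36875509-36883083 at a percentile of 93.3, lay outside SAMHD1. The covered length thus cannot be assigned to SAMHD1 alone. Its window was the most divided of the members, with 15 merged sites, and the start site chr20:36949325-36952939 was in 11 lists, all but the second YTHDF1-KO anti-YTHDF1 list.

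ADAR, the enzyme that edits adenosine to inosine in double-stranded RNA and so hides it from IFIH1, lies at chr1:154582057-154627997. With anti-YTHDF1 its covered length was 4525 and 4927 bp in WT, 3075 and 1420 bp in YTHDF1-KO and 5391 and 6676 bp in siARID1A. The anti-ARID1A libraries had 6943 and 10692 bp in WT, 15616 and 14767 bp in YTHDF1-KO and 3485 and 3997 bp in siARID1A. The 3 conditions did not overlap with either antibody, and their order was the opposite one. The window also takes in CHRNB2 (chr1:154567778-154580013), so the covered length cannot be assigned to ADAR alone. In the first YTHDF1-KO anti-YTHDF1 list the strongest peak, chr1:154575737-154577553, lay there, with 1817 of the 3075 bp. With the gene alone, the YTHDF1-KO positions against WT were kept with both antibodies. The siARID1A position with anti-YTHDF1 was lost. At the outer start, both WT and both siARID1A anti-YTHDF1 lists had a peak within 1 kb and neither YTHDF1-KO list did. The peaks had percentiles of 59.2 and 43.4 in WT and 48.5 and 59.2 in siARID1A, so they were of middle rank. At the inner start both WT lists and the first siARID1A list had one, with percentiles of 7.86, 33.5 and 87.5, and again neither YTHDF1-KO list did. A start with a peak in both WT and neither YTHDF1-KO anti-YTHDF1 list made up 3.68% of all RefSeq starts, and the opposite pattern 1.28%. Of the members with a start entry, ADAR alone had a start with the former pattern, and none had the latter. No member start had such a pattern with anti-YTHDF1 in siARID1A (1.22% of starts in WT alone, 3.24% in siARID1A alone). With anti-ARID1A no listed member start had it in YTHDF1-KO (1.01% in WT alone, 1.14% in YTHDF1-KO alone) or in siARID1A (3.94% and 0.303%). The outer start was held in 5 anti-ARID1A lists, all but the first siARID1A list, and the inner start in all 6. The inner site, chr1:154606032-154610788, was the stronger of the 2 with anti-ARID1A, at percentiles of 56.3 and 79.7 in WT, 84.9 and 79.7 in YTHDF1-KO and 74.8 and 80.1 in siARID1A. With 3 kb to either side in place of 1 kb, the second YTHDF1-KO list held a peak near the outer start, chr1:154623730-154625149, and the pattern was kept at 1 of the 3 RefSeq starts of ADAR, the inner one. With 0.5 kb, or with lists cut to the 40562 strongest peaks, it was kept at the 2 outer starts, which are 154627997 and 154627971, and not at the inner one.

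Whether the antibodies differed at the members was tested on covered length over all 12 libraries, with a two-sided exact permutation test over 924 arrangements for each gene (smallest p 0.00216) and Benjamini-Hochberg adjustment over 19970 genes. Of the 10 members, 4 were higher with anti-ARID1A at an adjusted p under 0.05, against 62.3% of all genes, and no member was higher with anti-YTHDF1, against 0.165%. The share of members called was thus no larger than the share of all genes. With every list cut to its 40562 strongest peaks, 3 members (all but IFIH1) and 36.2% of all genes were called. These arrangements ignored condition, and each group of 6 pools the 3 conditions, so an SD given below includes differences between conditions. For SAMHD1 with anti-ARID1A the means were 22227, 14507 and 5972.5 bp in WT, YTHDF1-KO and siARID1A. With permutation within each condition, 6 members and 57.8% of all genes were called. SAMHD1 averaged 14236 ± 7405 bp with anti-ARID1A and 2210 ± 1566 bp with anti-YTHDF1 (SD, n = 6 each) and all 6 anti-ARID1A libraries lay above the highest anti-YTHDF1 library (exact permutation, adjusted p = 0.00918). With the gene alone the SAMHD1 difference was 6403.5 bp (exact permutation, adjusted p = 0.0139), beside 12025.8 bp with the flanks, which take in TLDC2. MAVS averaged 26025 ± 8004 against 8380 ± 2687 bp (SD, n = 6 each), with 5 of 6 anti-ARID1A libraries above the highest anti-YTHDF1 library (exact permutation, adjusted p = 0.0130). IRF3 averaged 23565 ± 2568 against 18172 ± 1819 bp (SD, n = 6 each), with 5 of 6 likewise above (exact permutation, adjusted p = 0.0130), at a ratio of means of 1.3; anti-ARID1A peaks filled up to 97.6% of its window, which caps this ratio. IFIH1 averaged 1166 ± 800 bp with anti-ARID1A against 0 bp (n = 6 each), with 5 of 6 above 0 (exact permutation, adjusted p = 0.0284). Of these genes, SAMHD1 alone had 2 antibody groups that did not overlap. The other members did not pass the exact permutation test, with adjusted p of 0.0540 for TREX1, 0.0596 for TBK1, 0.0623 for STING1, 0.0789 for CGAS, 0.0968 for ADAR and 0.23 for IFI16. Their ratios of means were 1.76, 2.4, 2.37, 6.41, 2.13 and 7.93. The median ratio was 2.4 over the 9 members with peaks in both antibodies and 2.90 over all genes. Leaving out the first siARID1A anti-ARID1A library raised the members called to 8, leaving out the second raised them to 7, and leaving out the first WT anti-YTHDF1 library raised them to 6.

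For 2 libraries against 2 the smallest p of the exact permutation test is 0.33, and no test was run, so the conditions are described by whether both libraries lay on 1 side of both WT libraries. The antibody arms share no library, but the YTHDF1-KO and siARID1A comparisons of an antibody share the same WT libraries. With anti-YTHDF1, both YTHDF1-KO libraries lay below both WT libraries for TBK1, IRF3 and ADAR, 3 of 10 members against 16.0% of all genes, and above them for STING1, 1 of 10 against 7.34%. The ratio of mean covered length in YTHDF1-KO to WT was 0.0854 for TBK1, 0.848 for IRF3, 0.476 for ADAR and 2.01 for STING1, beside a median of 0.773 over all genes. For TBK1 the 2 WT lists shared no peak. IRF3 thus lay above that median although its libraries were separated. With anti-YTHDF1 in siARID1A no member lay below (background 6.44%), and ADAR alone lay above (16.7%), at 1.28 times WT beside a median of 1.1, a position lost with a 3 kb flank, with the gene alone and with lists of equal length. MAVS, at 1.31, overlapped WT because its siARID1A libraries, 6503 and 13639 bp, lay on either side.

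With anti-ARID1A, both YTHDF1-KO libraries lay below WT for TREX1, SAMHD1 and IFIH1, 3 of 10 members against 19.9% of all genes, and above WT for TBK1, MAVS and ADAR, 3 of 10 against 15.1%. The ratios to WT were 0.946, 0.653 and 0.363 for the former and 1.5, 1.16 and 1.72 for the latter, beside a median of 0.978 over all genes. Some margins were narrow, as the nearest YTHDF1-KO and WT libraries had 11309 and 11346 bp for TREX1 and 5645 and 5523 bp for TBK1. With lists of equal length TREX1 turned, both YTHDF1-KO libraries then lying above WT; the cause was not tested. The RNA sensor IFIH1 and its adaptor MAVS lay on opposite sides of WT. The IFIH1 position rested on 982 and 0 bp in YTHDF1-KO against 1254 and 1452 bp in WT. It was kept with a 3 kb flank and with lists of equal length, and lost with the gene alone. The 0 bp came from the second YTHDF1-KO list, in which CGAS and IFI16 also had no peak. TBK1 and ADAR, 2 of 10 members, were below WT with anti-YTHDF1 and above it with anti-ARID1A, as were 1.91% of all genes, and no member had the opposite pair of positions (1.1%). With lists of equal length ADAR was no longer below WT with anti-YTHDF1, and the pair of positions was lost there. In siARID1A with anti-ARID1A, 8 of 10 members lay below WT against 67.7% of all genes, and CGAS alone lay above, a state of 1.21% of genes. ADAR was above WT with anti-YTHDF1 and below it with anti-ARID1A, as were 12.8% of all genes, and no member had the opposite pair of positions (0.0601%). The member ratios ran from 0 for IFI16 to 1.76 for CGAS with a median of 0.554, beside 0.486 over all genes. SAMHD1, at 0.269, and STING1, at 0.257, lay furthest below that median among the members with a peak in both conditions. IRF3 was at 0.815, on a length that the window caps, since WT peaks ran past its edge. The shorter siARID1A anti-ARID1A lists moved with these ratios. With lists of equal length, 7 members (STING1, TBK1, IRF3, TREX1, SAMHD1, MAVS and ADAR) lay below WT, against 52.5% of all genes. How large a part list length had in the ratios was not tested. For CGAS the position above WT was lost with a 3 kb flank, with the gene alone and with lists of equal length.

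**Figure D4:**
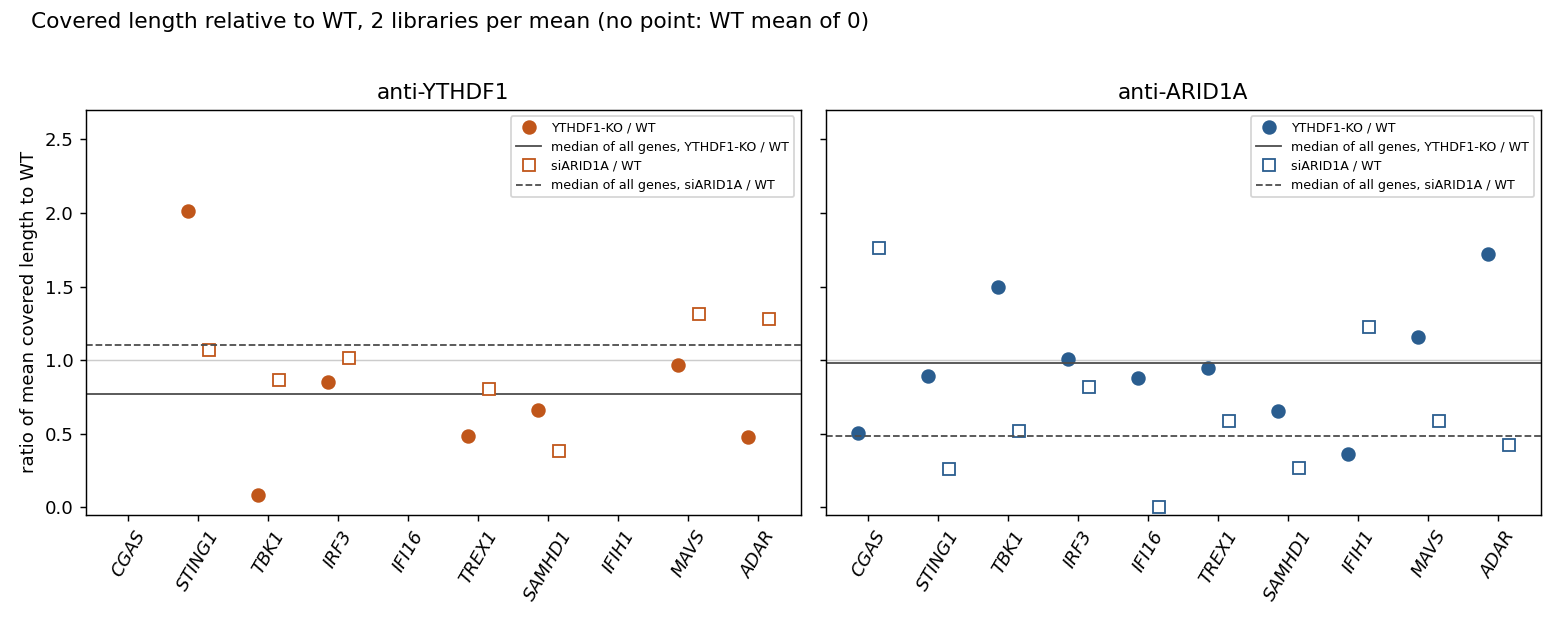
Ratio of mean covered length to WT (vertical axis, linear), with anti-YTHDF1 on the left (7 members; CGAS, IFI16 and IFIH1 have a WT mean of 0 and no point) and anti-ARID1A on the right (10 members); filled circles are YTHDF1-KO, open squares siARID1A, and lines the medians over all genes. TBK1 and ADAR lie below 1 with anti-YTHDF1 and above 1 with anti-ARID1A in YTHDF1-KO, and 8 of the 10 members lie below 1 with anti-ARID1A in siARID1A.

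Presence or absence of any peak in the window seldom separated the conditions at the members. A gene with a peak in both libraries of 1 condition and neither of the other was found for 2.18% (WT alone) and 1.81% (YTHDF1-KO alone) of genes with anti-YTHDF1, and for 0.651% and 0.966% with anti-ARID1A, with no member among them. For siARID1A the shares were 1.11% (WT alone) and 2.5% (siARID1A alone) with anti-YTHDF1, with no member, and 2.1% and 0.411% with anti-ARID1A, where IFI16 was the single member, in WT alone. With lists cut to equal length IFI16 left that group, while TBK1 (anti-YTHDF1) and IFIH1 (anti-ARID1A) had a peak in both WT lists and neither YTHDF1-KO list.

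Further genes of the pathway, 55 in all, were taken from a list that spans RNA helicases, Toll-like receptors, 2′-5′ oligoadenylate synthetases, nucleases, ubiquitin ligases and interferon genes. With the antibody test above, 40 of the 55 were higher with anti-ARID1A and none with anti-YTHDF1, beside 62.3% of all genes. A peak lay in the window in all 12 lists for 28 of them, 50.9% beside 45.0% of all genes. Between conditions, 3 had a peak in both siARID1A lists and neither WT list with anti-YTHDF1, a pattern of 2.5% of all genes, and none had another such pattern in either antibody. They were RIGI, the sensor of short RNA ends that signals through MAVS, POLR3B, a subunit of the RNA polymerase that copies AT-rich DNA into RNA ligands of RIGI, and TNFAIP3, which restrains inflammatory signalling. The strongest peak in the 2 siARID1A lists had percentiles of 41.4 and 31.9 for RIGI, 33.4 and 61.2 for POLR3B and 51.8 and 27.8 for TNFAIP3. These peaks were of low or middle rank in their lists.

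The genes whose covered share varied most like that of a member over the 12 libraries were sought for the 3 sparsely covered sensors, each of which had a peak in 4 to 6 lists. ZPBP (r = 0.971) and POMP (r = 0.969) were most like IFI16, SLC25A4 (r = 0.908) and MEST (r = 0.895) most like CGAS, and PGM2 (r = 0.922) and TMEM47 (r = 0.893) most like IFIH1. These Pearson correlations over 12 libraries describe few peaks and share the lengths of the lists.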

How the data were processed

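Peaks were those the authors deposited, 1 list per library. Per the submitters' processing notes, the build was hg38 (GRCh38) and the tools were SEACR 1.3, a peak caller, with Bowtie2 2.4.2, fastp 0.23.2, deepTools 3.5.2, bedtools 2.30.0 and SAMtools 1.9. Whether IgG served as the control in peak calling is not stated in these sources. The deposited values used were a peak's position and its total and highest signal, on a scale the authors set. Peaks outside chromosomes 1 to 22 and X, 3.57 to 6.65% of a list, were left out.

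A gene's window was its RefSeq interval with 10 kb to either side, and a peak counted with 1 bp of overlap; start regions reached 1 kb to either side. Exon boundaries were not used. Percentiles rank a peak's total signal within its list. Antibodies were compared with the exact permutation test over libraries, two-sided, with Benjamini-Hochberg adjustment, using Python 3.11.15, numpy 2.4.6, pandas 2.3.3 and scipy 1.17.1; the test was tested on simulated data. Windows of 3 kb and of the gene alone, an overlap of 200 bp, lists of equal length, other permutation schemes and leaving out each library were tried, and the start windows and the counts of members under them were chosen after seeing the data. All 10 members are named; further pathway genes are named where both libraries of 1 condition and neither of the other held a peak. Members, lists and motifs were chosen with earlier results of these data known.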

Additional observations from a re-analysis of the deposited data

Results flagged for a closer look

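At 2 genes the YTHDF1-KO libraries lay on opposite sides of WT with the 2 antibodies. For TBK1 the ratio of mean covered length to WT was 0.0854 with anti-YTHDF1 and 1.5 with anti-ARID1A, and for ADAR it was 0.476 and 1.72. The 2 WT anti-YTHDF1 lists shared no peak in the TBK1 window, and the ADAR window also takes in CHRNB2. The TBK1 margin with anti-ARID1A was narrow, with 5645 bp in the nearest YTHDF1-KO library and 5523 bp in the nearest WT library. Such a pair, below with anti-YTHDF1 and above with anti-ARID1A, was found for 1.91% of all genes. With lists of equal length ADAR was no longer below WT with anti-YTHDF1. In siARID1A, ADAR lay above WT with anti-YTHDF1, at 1.28, and below it with anti-ARID1A, at 0.424, as did 12.8% of all genes, and this too was lost with lists of equal length. These differences between antibodies were not tested. The opposite sides describe 2 libraries against 2 in each arm.

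A single library stood far from the other 5 of its antibody for 4 of the 19 sets of 6 values examined, where chance gives about 1 in 20 for values without ties. For CGAS and IFI16 the other 5 values were tied at 0, so that any peak in the sixth would stand apart, and that rate does not apply. All were anti-YTHDF1. In siARID1A replicate 2 the covered length was 1190 bp for CGAS and 745 bp for IFI16, with the other 5 libraries at 0, and 13639 bp for MAVS. In WT replicate 1 it was 5252 bp for SAMHD1.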

How the results depend on the processing

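The lists give no depth, so a missing peak is not evidence of absence of signal. The antibody comparison called 12478 genes. It called 11292 with a 3 kb flank, 8309 with the gene alone, 7233 with lists of equal length, 12474 with 200 bp of overlap and 11550 with permutation within each condition. Leaving out 1 library gave 9900 to 14122. Of the members, 4 were called, 5 with the gene alone (STING1 added), 6 with permutation within each condition (CGAS and STING1 added), 3 with lists of equal length (IFIH1 lost) and 4 to 8 without 1 library. STING1, TBK1 and ADAR were added without either siARID1A anti-ARID1A library, TREX1 without the first of them, TBK1 and TREX1 without WT anti-YTHDF1 replicate 1, and CGAS without siARID1A anti-YTHDF1 replicate 2 or YTHDF1-KO anti-ARID1A replicate 2. With replicate numbers as pairs (the replicate block), 0 genes and 0 members were called, because the smallest p was then 0.0312; 43.3% of genes and 3 members had an unadjusted p under 0.05. The labels do not say whether libraries with equal replicate numbers belong together. Over all genes the replicate differences of the 2 antibodies correlated by -0.0565 in WT, -0.0233 in YTHDF1-KO and 0.0408 in siARID1A. Whether the numbers pair the libraries was not tested. For CGAS the antibody difference, 1073 bp, turned to -198 bp with lists of equal length; the cause was not tested.

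Genes held by both libraries of 1 condition and neither of the other numbered 796, 721, 323 and 502 (YTHDF1-KO and siARID1A with anti-YTHDF1, then with anti-ARID1A). Without 1 library they numbered 1908 to 2285, 1703 to 2484, 654 to 761 and 823 to 1383, since 1 library then stands for its condition. Members in siARID1A below WT with anti-YTHDF1 went from 0 to 1 (STING1) with lists of equal length. Those above WT went from 1 to 0 with a 3 kb flank, the gene alone and lists of equal length, with anti-YTHDF1 (ADAR) and with anti-ARID1A (CGAS). With the gene alone and anti-ARID1A, members below WT went from 3 to 1 in YTHDF1-KO and from 8 to 5 in siARID1A. ADAR starts with a peak in both WT and neither YTHDF1-KO anti-YTHDF1 list went from 3 to 1 with a 3 kb flank. In YTHDF1-KO with anti-ARID1A, lists of equal length moved TREX1 from below WT to above it. In YTHDF1-KO with anti-YTHDF1, lists of equal length gave TBK1, IRF3, TREX1 and MAVS below WT, without ADAR, and the gene alone gave MAVS above it in place of STING1.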

Other observations

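Start regions of the further pathway genes showed the patterns of both libraries against neither in small numbers. The RefSeq starts of these genes were not counted, so the genes named cannot be set against the shares of all starts given beside them. With anti-YTHDF1, SLC19A1, a carrier that can import cyclic dinucleotides, and TLR9, an endosomal DNA receptor, had a start with a peak in both WT lists and neither YTHDF1-KO list, as did 3.68% of all RefSeq starts. TRIM56, a ubiquitin ligase, had the opposite pattern, a state of 1.28% of starts. In siARID1A with the same antibody, DNASE2, the lysosomal DNA nuclease, and OTUD7B, a deubiquitinase, had a peak in WT alone (1.22% of starts), and TNFAIP3 had one in siARID1A alone (3.24%). With anti-ARID1A no such start of the list was seen in YTHDF1-KO. In siARID1A a peak in WT alone was seen for ADARB1, an RNA-editing relative of ADAR, DNASE1L3, a secreted DNA nuclease, and RNASEH2B, a subunit of the ribonuclease that removes RNA from DNA hybrids, beside 3.94% of starts. No start of the list had a peak in siARID1A alone with anti-ARID1A, a pattern of 0.303% of all starts.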
